A study of Mus musculus with 4 samples.

Results

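Ascl2, Olfm4, Smoc2, Prom1, Cd44, Msi1, Rgmb, Cdca7, Scn2b and Tnfrsf19 are 10 genes known as marks of the Lgr5-expressing stem cells of the intestinal crypt, and their levels were compared in kidney cells sorted on an Lgr5 reporter. They were taken by exact gene symbol from the array's annotation, which gave all 10 genes of the 18820 tested and 11 probe sets of the 35556 on the array, with 2 probe sets for Prom1 and 1 for each of the other 9. The tissue was metanephric kidney of mouse embryos, dissected at about day 14 of gestation and held in culture for about 10 days. All kidneys came from mice of the B6.129P2-Lgr5tm1(cre/ERT2)Cle/J line, in which a cassette of EGFP, an internal ribosome entry site and the tamoxifen-dependent recombinase CreERT2 sits at the Lgr5 locus, so every group carried the allele. GFP-high cells (2 arrays, kidneys A and B) were compared with GFP-negative cells (2 arrays, kidneys B and D), and total RNA was measured on Affymetrix arrays. The letters come from the titles, and no source used here says whether they stand for separate animals, so p-values measure only how far these 4 arrays scatter, and that scatter may be technical. The sort reads GFP protein made from the Lgr5 locus, and not whether each cell was reading the locus at that time. The labels do not say which cell types the GFP-negative gate held, or where cells of intermediate GFP went.

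In the crypt, stem cells between the Paneth cells receive Wnt and R-spondin signals and keep Lgr5, an R-spondin receptor, switched on. The transcription factor Ascl2 acts with Wnt signalling there to hold the stem cell state. Most of the other genes were picked out because their RNA falls as daughter cells leave the crypt base, and several have unrelated roles in other organs, Prom1 (CD133) and Cd44 among them.

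Of the 10 genes, 2 were higher in GFP-high cells (Prom1 and Olfm4), 2 were lower (Smoc2 and Cd44) and 6 did not pass (Ascl2, Msi1, Rgmb, Cdca7, Scn2b and Tnfrsf19). A gene passed at an adjusted p below 0.05 in limma, a linear model fitted to all genes with a pooled estimate of their spread, with Benjamini-Hochberg adjustment over the 18820 genes. Over all genes 19.2% passed, 8.08% higher and 11.2% lower, and the median log2 difference was 0.051 against 0.068 for the 10 genes. That median of the 10 rests on single arrays. It was -0.008 with GFP-high cells of kidney A left out and 0.233 with those of kidney B left out. It was 0.035 with GFP-negative cells of kidney D left out. With median-centred arrays the median of the 10 was 0.165, and the median over all genes was then 0.147. The 2 groups of arrays did not overlap for 4 genes that were higher and 2 that were lower, where 57.3% of all genes did not overlap (33.2% higher and 24.0% lower). With median-centred arrays the split over all genes turned from 1520 higher and 2100 lower to 2122 higher and 1889 lower, and Rgmb joined the genes that passed. An exact permutation test of a single gene cannot go below p = 0.333 with 2 arrays against 2, so none is given.

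Lgr5, on whose reporter the cells were sorted, read 10.43 (kidney A) and 10.34 (kidney B) in GFP-high cells against 6.39 and 6.31 in GFP-negative cells, all values being the deposited log2 levels. As a background reference the 990 olfactory receptor genes were used, which are not expected in kidney at high level. The 95th percentile of their mean levels over the 4 arrays was 4.24. Array by array it was 4.47 (kidney A) and 4.32 (kidney B) in GFP-high cells. In GFP-negative cells it was 4.10 (kidney B) and 4.13 (kidney D). Differences of genes near the reference were not adjusted for this. The GFP-negative cells carried kidney markers of several compartments, with Six2 of nephron progenitors at 10.17 and Lrp2 of the proximal tubule at 9.30, and the GFP-high cells carried Slc12a1 of the thick ascending limb at 10.39. In bulk RNA of sorted cells, fewer cells of a type and less RNA per cell cannot be told apart.

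Start sites of the 10 genes were read from RefSeq (GRCm38.p6), which gave 12 windows for 8 of them; Smoc2 and Msi1 had none in the table used. The 250 bases before each start were searched on both strands for CTTTGAT and CTTTGAA, letters of the kind bound by the TCF and LEF factors that carry the Wnt signal to DNA. The motifs differ only in their last letter, so no place is counted for both. Of the 12 windows 2 held a match, the second start of Tnfrsf19 (202 bases before the start) and the start of Scn2b (247 bases before it), while 7.48% of all 32851 windows of this length held one. These 2 windows are shown because they hold the Wnt-type letters, printed in capitals as read on the gene's strand, where they are the reverse complement of the motif. The 2 windows of Prom1 follow because its 2 probe sets gave different results, and they hold no match. No source used here says which start either probe set reads. A match describes the letters only.
Tnfrsf19, second start, chr14:61037988-61038237 (- strand): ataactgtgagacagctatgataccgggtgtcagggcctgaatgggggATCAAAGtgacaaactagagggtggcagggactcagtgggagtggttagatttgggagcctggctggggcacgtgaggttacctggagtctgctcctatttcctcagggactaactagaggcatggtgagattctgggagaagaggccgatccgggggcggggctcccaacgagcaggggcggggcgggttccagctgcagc
Scn2b, chr9:45117626-45117875 (+ strand): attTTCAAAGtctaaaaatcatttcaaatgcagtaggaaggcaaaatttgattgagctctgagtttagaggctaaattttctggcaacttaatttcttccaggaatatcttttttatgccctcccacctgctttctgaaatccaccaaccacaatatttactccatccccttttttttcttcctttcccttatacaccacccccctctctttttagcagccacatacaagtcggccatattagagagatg
Prom1, first start, chr5:44101737-44101986 (- strand): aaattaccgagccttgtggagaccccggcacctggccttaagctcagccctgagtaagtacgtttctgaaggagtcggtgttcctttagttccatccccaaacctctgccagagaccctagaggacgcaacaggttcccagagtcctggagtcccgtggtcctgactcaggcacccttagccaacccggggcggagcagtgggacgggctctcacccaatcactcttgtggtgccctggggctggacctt
Prom1, second start, chr5:44094769-44095018 (- strand): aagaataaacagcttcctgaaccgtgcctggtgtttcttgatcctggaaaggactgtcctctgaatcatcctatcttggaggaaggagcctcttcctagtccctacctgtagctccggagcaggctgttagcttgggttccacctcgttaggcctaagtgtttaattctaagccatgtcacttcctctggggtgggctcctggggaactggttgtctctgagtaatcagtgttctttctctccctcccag

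Among the secreted products, Olfm4 was higher and Smoc2 lower in GFP-high cells. Olfm4 encodes olfactomedin 4, a secreted glycoprotein that is among the most specific crypt stem cell products. Its level was 5.95 on each GFP-high array, while GFP-negative cells read 4.93 (kidney B) and 5.35 (kidney D). Both GFP-high values lay above both GFP-negative values, and all 4 lay above the background reference. The log2 difference was 0.81 (SE 0.16, limma adjusted p = 0.01163), a 1.76-fold difference, with group values of 5.95 ± 0.0020 and 5.14 ± 0.29 (SD, n = 2 each). With 1 array left out the call held in 1 of 4 fits, the one lacking GFP-negative cells of kidney D. It was lost when GFP-high cells of kidney A were left out (adjusted p = 0.1701), those of kidney B (adjusted p = 0.1548) or GFP-negative cells of kidney B (adjusted p = 0.1008), while the difference stayed between 0.60 and 1.02.

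Smoc2 encodes a calcium-binding matricellular protein and is used as a crypt stem cell marker. It stood at 5.38 and 5.41 in GFP-high cells and at 7.62 and 7.91 in GFP-negative cells. The GFP-high arrays were both lower and lay close together. The log2 difference was -2.37 (SE 0.14, limma adjusted p = 4.768e-05), a 5.18-fold decrease, with groups at 5.40 ± 0.024 and 7.77 ± 0.20 (SD, n = 2 each). By size it was the 358th difference of the 18820 genes, and the call held without each of the 4 arrays. Within kidney B alone, where both fractions carry the same letter, the difference was -2.21.

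**Figure D1:**
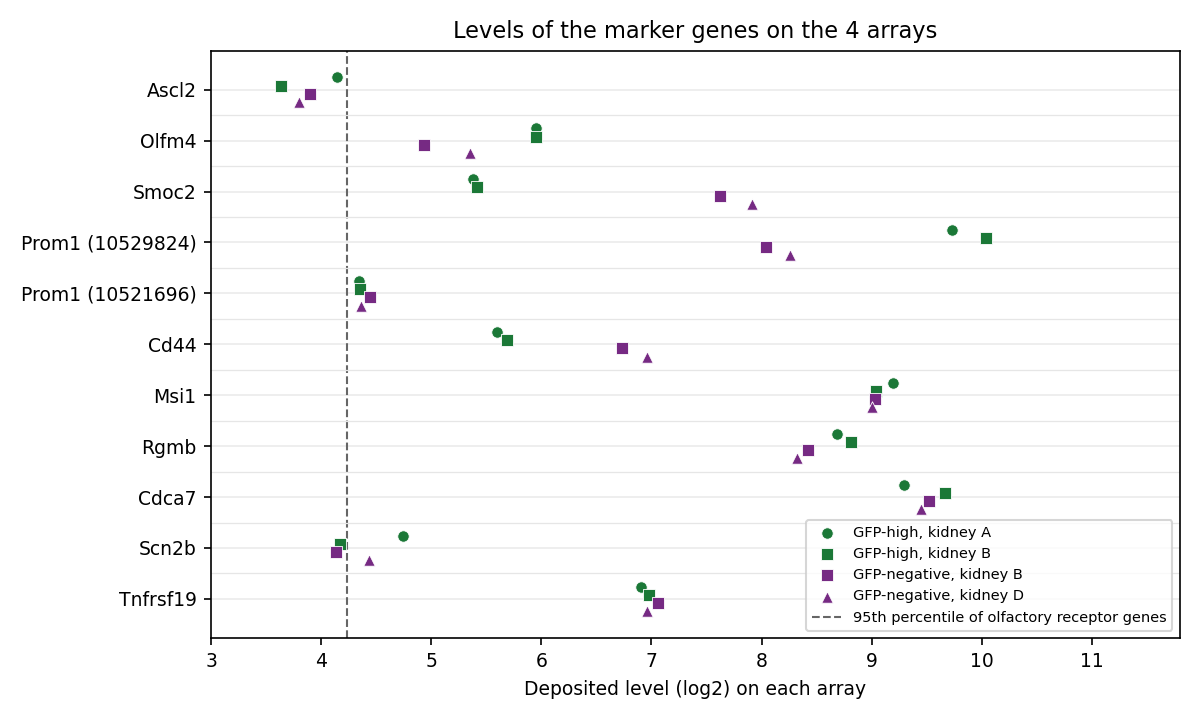
Deposited log2 level of each probe set of the 10 marker genes (rows) on the 4 arrays (points; green GFP-high, purple GFP-negative, symbols for kidneys A, B and D), with a dashed line at 4.24, the 95th percentile of the olfactory receptor genes. Smoc2, Cd44, Olfm4 and the upper Prom1 probe set separate the groups widely, Ascl2 lies left of the line on all 4 arrays, and the lower Prom1 probe set lies just right of it.

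Of the 5 genes of cell surface proteins, Prom1 was higher, Cd44 lower, and Rgmb, Tnfrsf19 and Scn2b did not pass. Prom1 encodes prominin-1, a pentaspan glycoprotein of membrane protrusions. The probe set with the higher mean, which stood for the gene, read 9.73 and 10.04 in GFP-high cells and 8.04 and 8.26 in GFP-negative cells. The lowest GFP-high value thus lay above the highest GFP-negative value. The log2 difference was 1.73 (SE 0.16, limma adjusted p = 0.0002683), a 3.32-fold increase, with groups at 9.88 ± 0.22 and 8.15 ± 0.16 (SD, n = 2 each), and the call held without each array in turn.

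The further Prom1 probe set read 4.34 and 4.35 in GFP-high cells and 4.45 and 4.37 in GFP-negative cells. All 4 values lay just above the background reference, but the GFP-high value of kidney A was below the percentile of its own array (4.47). The 2 groups differed by -0.06 (SE 0.12, limma adjusted p = 0.7986 when every probe set was tested). The annotation lists 9 transcript accessions for the first probe set and 2 for the further one, both of which are among the 9. With the 2 probe sets averaged, the Prom1 difference was 0.84 (limma adjusted p = 0.003041).

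Cd44 encodes a receptor for hyaluronan and is a Wnt-responsive gene of the crypt. Its levels were 5.60 and 5.69 in GFP-high cells against 6.74 and 6.96 in GFP-negative cells. Both GFP-high arrays were lower than both GFP-negative arrays. The log2 difference was -1.21 (SE 0.13, limma adjusted p = 0.0007793), a 2.31-fold decrease, with groups at 5.64 ± 0.065 and 6.85 ± 0.16 (SD, n = 2 each). With GFP-high cells of kidney A left out the difference was -1.16 and missed the threshold (adjusted p = 0.05441), and it passed when any of the other 3 arrays was left out.

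Rgmb encodes a membrane-anchored co-receptor of BMP ligands. It stood at 8.69 and 8.81 in GFP-high cells and 8.42 and 8.32 in GFP-negative cells, so the groups did not overlap. The difference of 0.38 (95% interval 0.08 to 0.67) did not pass (limma adjusted p = 0.08438), and it passed with median-centred arrays, at 0.47 (adjusted p = 0.03655).

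Tnfrsf19, also called Troy, encodes a receptor of the TNF receptor superfamily that marks crypt stem cells. Its values were 6.91 and 6.97 in GFP-high cells and 7.06 and 6.96 in GFP-negative cells. The groups overlapped, and the difference was -0.07 with a 95% interval of -0.36 to 0.22 (limma adjusted p = 0.7637). The sign turned with median-centred arrays (0.03).

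Scn2b encodes an auxiliary beta subunit of voltage-gated sodium channels. It read 4.74 and 4.17 in GFP-high cells and 4.13 and 4.43 in GFP-negative cells. The values crossed between the groups and 2 of the 4 lay at or below the background reference of 4.24. Against the percentile of each array itself, only the GFP-high value of kidney B was below. The difference was 0.17, with a 95% interval of -0.32 to 0.66 (limma adjusted p = 0.6476), and its sign turned when GFP-high cells of kidney A were left out (-0.11).

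The 3 genes of intracellular proteins did not pass. Ascl2, the basic helix-loop-helix factor that sets the crypt stem cell program, read 4.14 and 3.63 in GFP-high cells and 3.90 and 3.80 in GFP-negative cells. All 4 values lay below the background reference. The fitted difference was 0.04, with a 95% interval of -0.39 to 0.46 (limma adjusted p = 0.921).

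Msi1 encodes an RNA-binding protein first known from neural progenitors. It was well above background in both fractions, at 9.20 and 9.04 in GFP-high cells and 9.03 and 9.003 in GFP-negative cells. The groups did not overlap, and the difference of 0.10 had a 95% interval of -0.20 to 0.39 (limma adjusted p = 0.6672). Cdca7, a cell-cycle gene that responds to Myc, read 9.30 and 9.67 in GFP-high cells and 9.53 and 9.45 in GFP-negative cells. The 2 GFP-high values lay on either side of the GFP-negative values, and the difference was -0.005 with a 95% interval of -0.37 to 0.36 (limma adjusted p = 0.99).

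**Figure D2:**
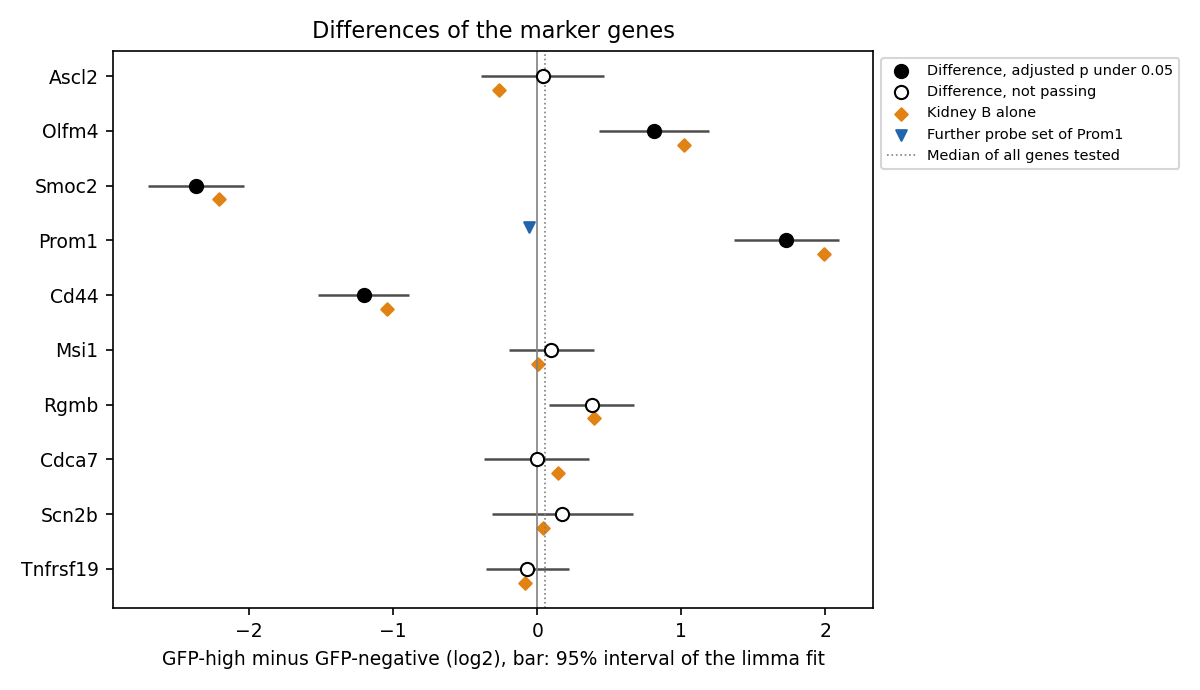
Log2 difference, GFP-high minus GFP-negative, of the 10 marker genes (circles; filled where the adjusted p was below 0.05) with the 95% interval of the limma fit, the difference within kidney B (diamonds) and the further probe set of Prom1 (triangle). Prom1 and Olfm4 lie to the right of 0 at 1.73 and 0.81, Smoc2 and Cd44 to the left at -2.37 and -1.21, and the intervals of 5 of the other 6 genes include 0, Rgmb being the exception.

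Both GFP-high arrays differed from each other by up to 0.57 among these probe sets, in Scn2b, followed by Ascl2 with 0.51 and Cdca7 with 0.37 (kidney B higher). The largest gap between the GFP-negative arrays was 0.42, in Olfm4. The 4 genes that passed had differences larger than the gaps within either group. The test weighs differences against such gaps, so this adds no evidence. Within kidney B alone the differences were 1.99 for Prom1, 1.02 for Olfm4 and -1.05 for Cd44. The groups do not overlap for these genes, so the signs within kidney B were fixed and are no check. The kidney B comparison has 1 array a fraction and no test, and its arrays are part of the main fit.

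Markers of several kidney cell types moved between the same fractions, in the direction of Smoc2 and Cd44 or of Prom1 and Olfm4. For the counts that follow, 8.08% of all genes were higher and 11.2% lower. Of 12 stroma markers 12 were lower in GFP-high cells, and their summed level on the linear scale (2 to the power of the deposited value) was 1115 to 1163 there against 9442 to 10099 in GFP-negative cells. Foxd1, which defines early stroma, was below the background reference in GFP-high cells at 3.10 and stood at 5.70 in GFP-negative cells. Its call and that of Tbx18 were lost when either GFP-high array was left out. The Foxd1 difference then stayed between -3.00 and -2.19 over the fits lacking an array. The largest differences of the list were those of Postn (6.05 against 10.03), Tcf21 and Pdgfrb. Of 10 cap mesenchyme markers 9 were lower (sums 1123 to 1384 against 8235 to 8339), led by Six2 (5.40 against 10.17), Itga8 and Osr1. All 8 proximal tubule markers were lower (463 to 464 against 2818 to 4206), led by Slc34a1 (5.71 against 10.04), Lrp2 and Slc27a2, and 4 of the 8 calls held with every array left out in turn (5 passed lacking GFP-high cells of kidney A and 4 lacking those of kidney B). So were 4 of 4 measured podocyte markers, Ptpro, Podxl, Nphs1 and Synpo (117 to 285 against 1004 to 2051), and 6 of 6 endothelial markers (111 to 112 against 463 to 657), led by Emcn, Cdh5 and Kdr. With arrays left out singly, 0 of the 4 podocyte calls and 2 of the 6 endothelial calls held every time. Podocyte calls fell to 0 and 2 lacking GFP-high cells of kidneys A or B and to 1 lacking GFP-negative cells of kidney B, and endothelial calls to 2 and 3 lacking GFP-high cells of kidneys A or B; Pecam1, which defines endothelium, was below the reference in GFP-high cells (4.23 against 5.56). Of 8 leukocyte markers 2 were lower, Laptm5 and Cd68 (sums 314 to 372 against 464 to 488), neither with any 1 array left out. Ptprc, which defines leukocytes, did not pass at 4.71 against 4.43, and Adgre1 of macrophages was below the reference in both fractions. In the other direction 9 of 9 measured thick ascending limb markers were higher (5736 to 6415 against 341 to 361), led by Slc12a1, Umod and Irx2. The call of Cldn10 in this list was lost when either GFP-high array was left out, with differences between 1.97 and 2.59 over the fits lacking an array. Also higher were 5 of 8 markers of ureteric bud and collecting duct (1077 to 1488 against 431 to 461), led by Wnt7b (8.47 against 4.92), Aqp2 and Gata3. Of these 5, 1 held with every array left out in turn (2 passed lacking GFP-high cells of kidney A, 1 and 2 lacking GFP-negative cells of kidneys B or D), and Ret of the ureteric tip did not pass (4.57 against 4.88). The further probe sets of Nphs1 (-0.198) and of Tbx18 in the stroma list (-0.062) did not pass, while that of Cldn10 did (1.96). These lists were chosen with earlier results of these data known, so their counts are a description and no independent evidence. The part of these cell types in the differences of Smoc2, Cd44, Prom1 and Olfm4 was not tested.

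Cdca7 can be set beside the markers of cycling cells. Of 12 measured, 5 were higher in GFP-high cells (Bub1, Top2a, Cdk1, Ccna2 and Aurkb) and 0 lower, where 8.08% of all genes were higher and 11.2% lower. Summed levels of the 12 were 12674 to 13524 against 9403 to 9924. None of the 5 passed in every one of the 4 fits with an array left out, and Mki67, the standard proliferation mark, did not pass (10.02 against 9.56). It passed, as the sixth marker higher, when both kidney B arrays were paired in the fit, a pairing chosen after seeing the data. Bub1, a spindle checkpoint kinase, was at 9.50 against 8.45, while Pcna, the sliding clamp of DNA replication, did not pass at 11.37 against 11.28. Further probe sets of Top2a lay below the background reference in both fractions and did not pass (differences 0.078 and 0.241). Top2a did not pass either with its probe sets averaged. The part of cycling cells in the level of Cdca7 was not tested.

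Of 22 other genes used as marks of the Lgr5 stem cell, 19 were measured, and 10 were higher, 2 lower and 7 not passing. Lgr5 itself, which the sort selects, is 1 of the 10. Over all genes 8.08% were higher and 11.2% lower. The median difference of the 19 was 0.49, against 0.051 over all genes. It was 0.74 with GFP-negative cells of kidney D left out and 0.395 with those of kidney B left out. Mecom, a zinc finger transcription factor, stood at 10.74 and 10.69 against 7.075 and 7.27, and Ephb3, a receptor tyrosine kinase that positions cells along the crypt, at 9.54 and 9.38 against 7.11 and 6.96. Both were well separated between the groups (limma adjusted p = 1.466e-05 and 3.437e-05). A further probe set of Mecom also passed, with a smaller difference of 1.16.

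Rnf43, whose ubiquitin ligase removes Wnt receptors, stood at 8.52 against 6.40, and Sox9, a transcription factor of the crypt base and of several kidney epithelia, at 10.30 against 8.86, both higher and both named after their values were seen. The remaining higher genes were Prss23, Fstl1, Znrf3, Kcnq1 and Efna4. With arrays left out singly, 7 of the 10 passed every time, and Znrf3, Kcnq1 and Efna4 never did. Of the 7 genes that did not pass, Axin2 (-0.19), Cdk6 (-0.05) and Ets2 (-0.40) had negative differences. Slc14a1 (0.08), Aqp4 (0.46), Mex3a (0.39) and Vdr (0.49) had positive ones. Slc12a2, a sodium-potassium-chloride cotransporter abundant in crypt cells, was lower at 8.59 against 9.83 (limma adjusted p = 0.0005689). Sox4 was lower at 7.75 against 8.32 (limma adjusted p = 0.04567), and it did not pass in the 4 fits lacking an array (adjusted p from 0.0666 to 0.2725) or with median-centred arrays.

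Of 4 genes of the slower-cycling reserve stem cells of the crypt, 1 was higher and 3 did not pass, where 8.08% of all genes were higher. Lrig1, a feedback inhibitor of ErbB receptors, was higher at 7.67 against 7.21 (limma adjusted p = 0.03834), and did not pass in the 4 fits lacking an array (adjusted p from 0.1187 to 0.2035). Bmi1, a Polycomb group gene, was at 8.37 against 8.59, Hopx at 4.54 against 5.16 and Tert, the telomerase catalytic subunit, at 5.60 against 5.46. These 3 did not pass. With the array number fitted as a block, Lrig1 did not pass and Hopx passed as lower. The direction of the only call in this list thus depends on the setting. Lrig1 did not pass under another variance model either.

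Of 8 genes that define the intestine itself, 0 were higher, 1 was lower and 7 did not pass. Over all genes 8.08% were higher and 11.2% lower, and this count and that of the differentiated cell genes below lie near those shares. Cdx2, the homeobox factor of intestinal identity, read 4.46 and 4.37 in GFP-high cells and 4.10 and 4.41 in GFP-negative cells, overlapping between the groups and near the background reference. Of the 8 identity genes, Cdh17, Isx and Krt20 had both group means at or below 4.24. Only Vil1 of the 8 passed, lower at 5.03 against 7.59 (limma adjusted p = 9.014e-05); it encodes villin, which bundles actin in the brush border of intestine and of proximal tubule alike. Of 16 measured genes of differentiated intestinal cells, 0 were higher, 2 lower and 14 not passing, and 7 had both means at or below 4.24, among them the brush border enzyme genes Alpi and Sis.

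The 2 lower genes were Dclk1, a tuft cell kinase also found in other tissues, at 5.43 against 6.79 (limma adjusted p = 0.004085), and Muc2, the goblet cell mucin, at 3.96 against 4.46 (limma adjusted p = 0.03403). Muc2 was below the background reference in GFP-high cells and did not pass in the 4 fits lacking an array (adjusted p from 0.1186 to 0.2218), nor with median-centred arrays. Dclk1 was lost when either GFP-high array or the kidney D array was left out, with differences between -1.65 and -1.07 over the 4 fits, and a further probe set of it read below 4.24 in both fractions. Lyz1 of Paneth cells, at 4.44 against 4.52, and Chga of enteroendocrine cells, at 4.74 against 4.78, did not pass.

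**Figure D3:**
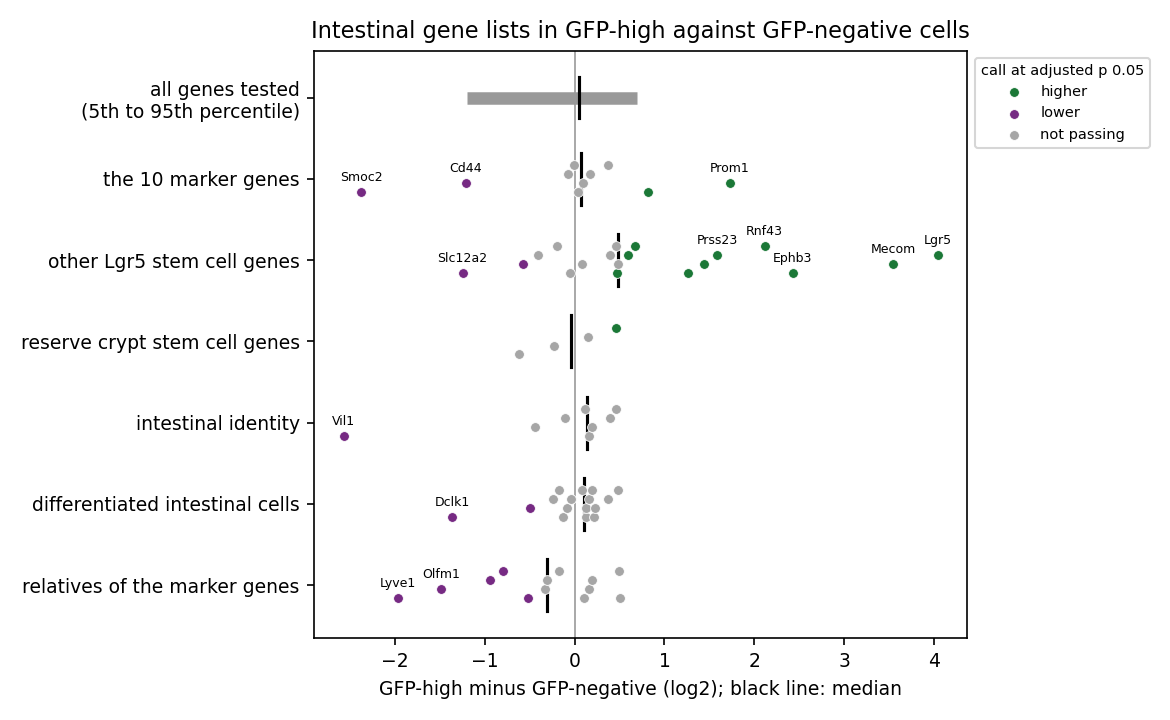
Log2 difference, GFP-high minus GFP-negative, of each gene (points; green higher, purple lower, grey not passing at adjusted p 0.05) in the 5 intestinal lists and among relatives of the marker genes, with the median of each list as a black line and the 5th to 95th percentile of all genes as a grey bar. The other Lgr5 stem cell genes have a median of 0.49, and the identity and differentiated cell genes lie within 1 of 0 apart from Vil1 and Dclk1.

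Gene relatives of the 10 were examined beside them, and 13 of 17 listed were measured. Of these 0 were higher, 5 lower and 8 not passing, where 8.08% of all genes were higher and 11.2% lower. The median difference of the 13 was -0.30. That median was -0.16 with GFP-negative cells of kidney D left out, and the lower calls fell to 1 lacking either GFP-high array and to 3 lacking either GFP-negative array. Median-centred arrays gave 2 higher, Prom2 and Scn4b, and 4 lower. On the deposited values, Scn4b, Edar and Olfm3 had both group means at or below the background reference. Olfm1, a secreted olfactomedin of neurons, was lower at 6.18 and 6.29 against 7.76 and 7.67 (limma adjusted p = 0.0001981), and passed with any 1 array left out. Olfm2, at 5.44 against 5.74, and Olfm3, below the reference in both fractions, did not pass. Smoc1 was lower at 5.48 and 5.33 against 6.06 and 6.35 (log2 difference -0.80, limma adjusted p = 0.007744), where Smoc2 gave -2.37. Among the fits with 1 array left out it passed in 1, that lacking GFP-negative cells of kidney B (adjusted p from 0.04582 to 0.1238).

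Prom2, the second prominin, stood near background at 4.40 against 3.90 and did not pass (limma adjusted p = 0.0608). Lyve1, the hyaluronan receptor of lymphatic endothelium and some macrophages, was lower with Cd44, at 5.13 and 4.82 against 6.37 and 7.503 (limma adjusted p = 0.005637); it was lost when either GFP-high array was left out, and its difference ranged from -2.53 to -1.40. Msi2, at 10.75 against 10.60, and Rgma, at 7.545 against 7.44, did not pass, like Msi1 and Rgmb. Eda2r, a receptor of the same superfamily as Tnfrsf19, was lower at 5.91 against 6.85 (limma adjusted p = 0.002152), passing in 1 of the 4 fits lacking an array (adjusted p from 0.03082 to 0.0717), while Edar (4.20 against 4.003) and Relt (4.11 against 4.43) did not pass. Scn3b was lower at 3.72 against 4.24 (limma adjusted p = 0.02089), its GFP-high level below the reference, and did not pass in the 4 fits lacking an array (adjusted p from 0.1118 to 0.1444) or with median-centred arrays. Scn4b, at 4.21 against 3.70, did not pass.

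**Figure D4:**
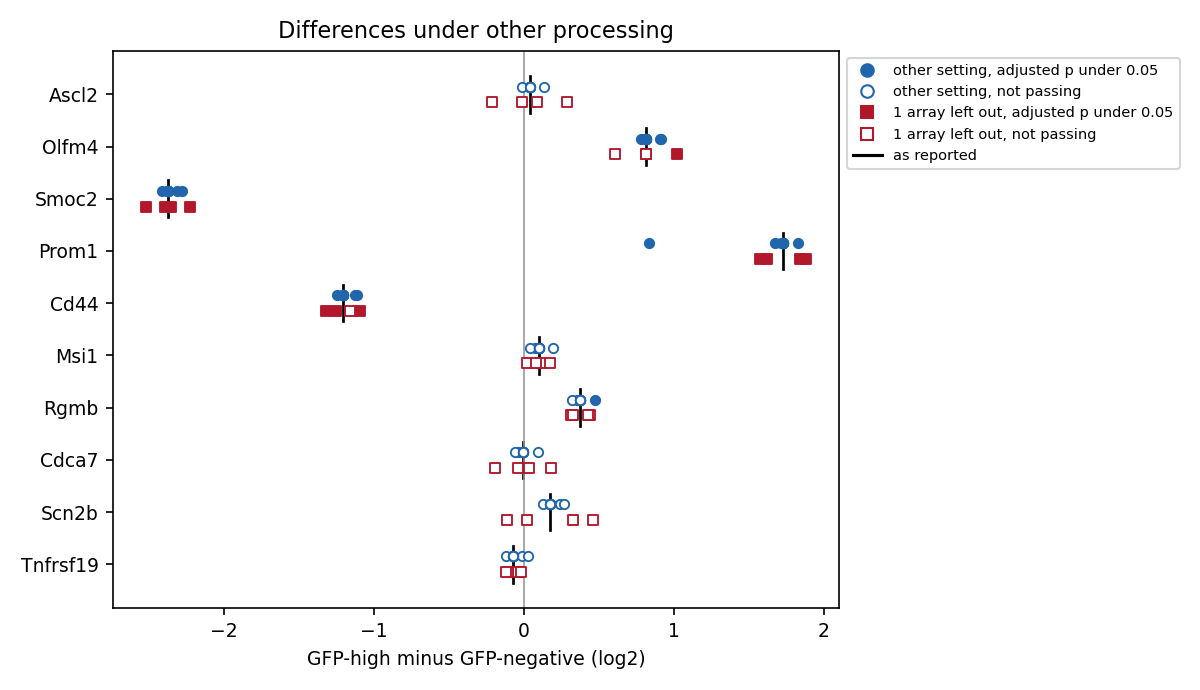
Log2 difference of each marker gene under other normalizations, filters, probe set rules, blocks and variance models (blue circles) and with 1 array left out (red squares), filled where the adjusted p was below 0.05, with the reported value as a black line. Smoc2 and Prom1 stay filled throughout, Olfm4 is filled in 1 of 4 fits with an array left out, and the Prom1 circle at 0.84 is the mean of its 2 probe sets.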

How the data were processed

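The values are log2 expression levels, 1 per probe set and array, in the table deposited by the authors. Per the labels' protocols, RNA was isolated on columns and labelled with biotin by a whole-transcript kit; how probes were summarised and normalized was left unstated there. Groups and array numbers were read from the sample descriptions. Of 35556 probe sets, 21218 named a single gene; for 1386 genes with several, the one with the highest mean stood for the gene, leaving 18820 genes. No probe set shared by several genes named a marker gene.

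limma 3.58.1 in R 4.3.3 fitted group alone to all genes (lmFit, eBayes; 2 residual and 5.11 prior degrees of freedom), two-sided, with Benjamini-Hochberg adjustment over 18820 genes at 0.05. The unadjusted p was below 0.05 for 5571 genes. On simulated arrays with 200 changed genes, 74.9% of changes of 1 and 99.1% of changes of 2 (log2) were recovered, with 5.57% false calls. The simulated spread was drawn from limma's own fitted estimate, and the data gave 3620 calls. These rates therefore describe the simulated setting and not the share of changes found in these data.

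The marker genes, lists and background reference were chosen with earlier results of these data known. All relatives, the first gene of each list and the 3 largest passing differences per direction are named; others named were chosen after their values were seen. Precision is limited by having 2 arrays a group. The array numbers do not pair arrays of the same kidney letter. Other blocks, normalizations, filters, probe set rules and left-out arrays were tried as alternatives.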

Additional observations from a re-analysis of the deposited data

How the results depend on the processing

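Over the 10 marker genes, 140 of 147 values under other settings kept the side of the threshold. Where there was no test, kept means within the spread of the arrays. The exceptions were the further probe set of Prom1 (-0.058), Prom1 within kidney B (1.99), Rgmb with median-centred arrays, and the losses of Olfm4 and Cd44 with an array left out. The count does not measure stability, since blocks, filters and probe set rules leave the difference of a gene with 1 probe set unchanged. Genes that did not pass also count as kept where fewer arrays weaken the fit. The signs of Ascl2, Cdca7, Scn2b and Tnfrsf19, which did not pass, turned under some settings. Testing only genes above the median level gave 2385 calls, 1192 of them lower, and left 1 marker gene higher, because Olfm4 is not among the genes tested. Leaving out 1 array, which leaves a lone array assumed to vary like the others and 1 residual degree of freedom, gave 1123 to 1749 calls (387 to 603 higher, 729 to 1148 lower), with 1 to 2 marker genes higher and 1 to 2 lower. With the array number as a replicate block, 2959 genes passed and the same 2 marker genes were higher (Prom1 and Olfm4) and 2 lower (Smoc2 and Cd44). Arrays of the same number deviated from their group means with a correlation of -0.198; pairing the kidney B arrays and those of kidneys A and D instead, chosen after seeing the data, gave 4102 calls. The kidney letter as a random block was not run, since 4 arrays are too few for limma to estimate the correlation.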
